A study of Drosophila melanogaster with 21 samples.

Results

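The 8 genes described here encode the main superoxide- and peroxide-removing enzymes of the fly, both subunits of the enzyme that starts glutathione synthesis, and the regulator pair that controls many antioxidant genes. They are Sod1, Sod2, Sod3, Cat, Gclc, Gclm, Keap1 and cnc, taken by symbol from the 17559 FlyBase identifiers that each of the 4 deposited tables lists, and all 8 were found in every table. All 8 had an adjusted p in all 4 tables, so no member was lost to a filter on low counts.

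The study compared polyA RNA from heads of adult flies, 3 to 5 days old, that were fed ad libitum or fasted for 16 hours. Control flies were w1118, a stock named for a mutation of the eye-colour gene white, and the others were a Crtc knockout (crtc ko in the labels), lacking the coactivator of the transcription factor CREB. Fed control heads gave 3 libraries, fasted control heads 2, fed knockout heads 3 and fasted knockout heads 2. The labels do not give the sex of the flies, the kind of Crtc allele, the background of the knockout stock or if each library had its own flies, and a p-value then reflects how these libraries vary, possibly for technical reasons. The tables give means and folds over libraries and no value per library, so the values of single libraries cannot be shown.

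Superoxide dismutases turn superoxide into hydrogen peroxide, which catalase and the peroxidases remove. Glutathione, the main small thiol of the cell, is used by the glutathione transferases. Its synthesis begins with glutamate-cysteine ligase, made of the catalytic subunit Gclc and the modifier subunit Gclm. The long product of cnc, CncC, is the fly counterpart of mammalian Nrf2: with a small Maf protein it activates antioxidant and detoxification genes, and Keap1 holds it back by presenting it for degradation.

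As a check of the genotype, Crtc had a base mean (the mean of normalized counts over the libraries of a comparison) of 339.7 per the authors' deposited table of control fasting and 0.36 per the authors' deposited table of knockout fasting. Head tissue markers fitted the labelled tissue in level: the 5 photoreceptor markers summed to between 38481 and 54939 normalized counts per 1000000 over the 4 groups, and the 5 neuronal markers to between 4244 and 5263. The photoreceptor sum was lowest in fed control and highest in fed knockout heads. Between these groups ninaE was called higher in knockout heads (0.60 ± 0.16, adjusted p = 0.00695, per the authors' deposited table) and the other 4 were not called. Of 3 gut markers, alphaTry had a base mean under 1 in every table and Mal-A1 was not called, while the amylase gene Amy-p was higher in fasted than in fed control heads (log2 fold 2.17 ± 0.20, adjusted p = 6.41e-24) and lower in knockout than in control heads, both fasted and fed (adjusted p = 4.59e-25 and 3.21e-12), per the authors' deposited tables. The gut markers summed to 402 in fasted control heads and to between 17.6 and 71.0 in the other 3 groups, and their part in the values of the 8 genes was not tested. The third fed library of each genotype is listed in the labels with another set of samples than the other libraries, and that set has no fasted library. Its part in the fasting comparisons was not tested. In whole heads, fewer cells of a type and less RNA per cell cannot be told apart, and this holds for every gene below.

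The 8 genes spanned a wide range of levels. Group levels were worked out from the base mean and the fold of each table, with the shrinkage of the fold undone, and divided by the length of the annotated exons, so that genes can be compared with each other. In fed control heads the level per 1000000 normalized counts and per kilobase of exon, called the level per kilobase below, was 468.9 for Sod1, the copper-zinc dismutase of the cytosol, and 135 for Sod2, the manganese dismutase of mitochondria. It was 76.8 for Cat, 55.7 for Gclm, 34.3 for Sod3, the extracellular copper-zinc dismutase, 26.2 for Gclc, 22.1 for cnc and 7.27 for Keap1. Sod1 was therefore the most abundant transcript of the 8 per length and Keap1 the least, in each of the 4 groups. The order of Gclc and cnc, neighbours on this scale, turned when the longest transcript was used as the length (27.2 and 29.2). With no value per library, the spread around these levels is unknown, and neighbours in the order were not tested against each other. Each group appears in 2 tables, and the level of a member from the second table was between 0.976 and 1.02 times that from the first.

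**Figure D1:**
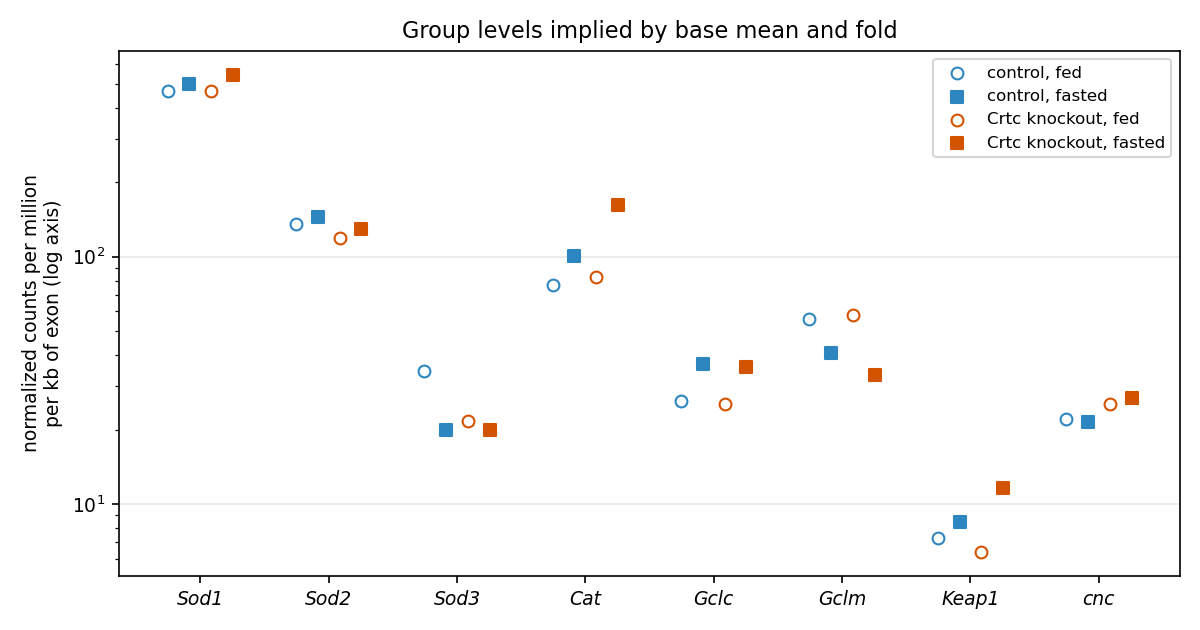
Level of each gene in the 4 groups (normalized counts per 1000000 and per kilobase of exon, log axis), implied by the authors' base means and folds, with no error bars because values per library were not analysed here. Sod1 lies highest at 466.5 to 544.2 and Keap1 lowest at 6.41 to 11.6, and Cat in fasted knockout heads, at 162, stands apart from its other 3 groups at 76.8 to 101.

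Catalase, the peroxisomal enzyme that splits hydrogen peroxide into water and oxygen, had the smallest adjusted p of the 8 in any comparison. Cat (FBgn0000261, chromosome 3L, 18822604 to 18828188, plus strand, a protein-coding gene with a single annotated transcript) stood at 76.8 in fed control, 101 in fasted control, 82.8 in fed knockout and 162 in fasted knockout heads, as a level per kilobase. Fasted knockout heads were thus the high group, and both fed groups were close to each other. In knockout heads fasting raised Cat by a log2 fold of 0.88 ± 0.18 (standard error, here and below), or 1.85-fold, per the authors' deposited table (DESeq2, adjusted p = 5.07e-05). By the size of its Wald score (the fold over its standard error) Cat ranked at place 117 of 10037 genes there. In control heads the fold was 0.35 ± 0.18 per the authors' deposited table and did not pass (adjusted p = 0.558). Fasted knockout heads had more Cat than fasted control heads, by 0.66 ± 0.19 or 1.58-fold per the authors' deposited table (adjusted p = 0.0159). The fasted knockout libraries enter both of the Cat comparisons that passed, so these calls are not independent of each other. Between fed heads the fold was 0.13 ± 0.17 per the authors' deposited table (adjusted p rounds to 1), with a 95% interval from -0.19 to 0.46.

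The difference of the fasting response between genotypes was tested directly, since a call in a single genotype does not show it. For Cat it was 0.53 ± 0.25 (knockout minus control, log2), with a 95% interval from 0.04 to 1.03, and did not pass over 8474 genes (adjusted p rounds to 1, unadjusted p = 0.0332). In fasted knockout against fasted control heads, 3 of 4 fat body markers were higher (Lsp2, apolpp and AkhR) and 0 lower. In that comparison 4 of 4 muscle markers were higher. On fasting in knockout heads, 2 of 4 fat body markers were higher (AkhR and bmm) and 1 lower (Lsp2), with 0 of 4 muscle markers called. The fat body markers summed to 3286 per 1000000 in fed control, 1538 in fasted control, 2983 in fed knockout and 2437 in fasted knockout heads. The muscle markers summed to 2375, 1345, 2426 and 2279 in the same order. The part of these tissues in the Cat values was not tested. Over the 4 folds, the genes most like Cat were CG34331, CG7920 and FBgn0025683, for which no symbol was found, at Euclidean distances of 0.145, 0.170 and 0.172 among 4700 other genes whose base mean was 100 or more. These 4 folds share libraries, so the likeness is a description.

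Of the superoxide dismutases only Sod3 was called in any comparison, and their folds were not tested against each other. Sod3 (FBgn0033631, chromosome 2R, 11380347 to 11384114, minus strand, 5 annotated transcripts) had a level per kilobase of 34.3 in fed control heads, 19.9 in fasted control, 21.6 in fed knockout and 19.9 in fasted knockout heads. Fed control heads were the only high group of the 4. Fasting lowered Sod3 in control heads, with a log2 fold of -0.69 ± 0.19 per the authors' deposited table (0.620 times the fed level, adjusted p = 0.00744). In knockout heads the fold on fasting was -0.11 ± 0.21 per the authors' deposited table (adjusted p = 0.998), with a 95% interval from -0.52 to 0.31. Fed knockout heads had less Sod3 than fed control heads, at -0.57 ± 0.17 per the authors' deposited table (0.674 times, adjusted p = 0.0271), while fasted heads of both genotypes differed by 0.02 ± 0.24 per the authors' deposited table (adjusted p = 0.999). The fed control libraries enter both of the comparisons that passed, so they are not independent of each other. The responses to fasting differed by 0.58 ± 0.28 between the genotypes (95% interval 0.03 to 1.14), which did not pass (adjusted p rounds to 1, unadjusted p = 0.0379).

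Among tissue markers in control heads, fasting lowered 3 of 4 muscle markers (Mhc, Mlc2 and up) and raised 0, and for fat body 2 of 4 were lower (Lsp2, apolpp) and bmm was higher. The hemocyte marker Hml was lower in fasted heads of both genotypes, and the 4 hemocyte markers summed to 26.8 per 1000000 in fed control, 10.3 in fasted control, 34.6 in fed knockout and 12.5 in fasted knockout heads. The 5 glial markers summed to 2054 per 1000000 in fed control, 1664 in fasted control, 1669 in fed knockout and 1861 in fasted knockout heads. All 5 glial folds were below 0 on fasting in control heads (median -0.35) and in fed knockout against control heads (median -0.22), with 0 of 5 called in either. On fasting in knockout heads 3 of 5 were below 0, and Gs2 was higher (0.49 ± 0.15, adjusted p = 0.0479, per the authors' deposited table). In fasted knockout against control heads 4 of 5 were above 0, with 0 of 5 called. Markers of other tissues were called between fed heads. In fed knockout against control heads 1 of 4 fat body (Lsp2, 1.42 ± 0.25) and 1 of 4 muscle markers (Act88F, 1.10 ± 0.29) were higher. So were 1 of 3 hemocyte markers tested (NimC1, 0.85 ± 0.28) and 1 of 5 photoreceptor markers (ninaE, 0.60 ± 0.16), per the authors' deposited table. None of these lists had a marker called lower, while the gut marker Amy-p was lower and 0 of 5 neuronal markers were called. The part of any of these tissues in the Sod3 values was not tested.

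Sod1 (FBgn0003462, chromosome 3L, 11112281 to 11113740, minus strand) and Sod2 (FBgn0010213, chromosome 2R, 16772785 to 16773915, minus strand) were not called in any comparison. The level of Sod1 per kilobase lay between 466.5 and 544.2 over the 4 groups, and that of Sod2 between 119 and 144. The 4 log2 folds of Sod1 lay between 0.03 and 0.19 and those of Sod2 between -0.12 and 0.10 per the authors' deposited tables. For Sod1 the 95% intervals reached from -0.34 to 0.63 over the 4 comparisons, and for Sod2 from -0.56 to 0.53, so changes of up to these sizes cannot be told from none. Sod1 differed between genotypes in its fasting response by 0.11 ± 0.29 and Sod2 by 0.02 ± 0.30 (adjusted p rounds to 1 for both). In fasted knockout heads the level of Cat passed that of Sod2, with a ratio of Cat to Sod2 of 1.25, against 0.569 in fed control, 0.700 in fasted control and 0.694 in fed knockout heads.

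**Figure D2:**
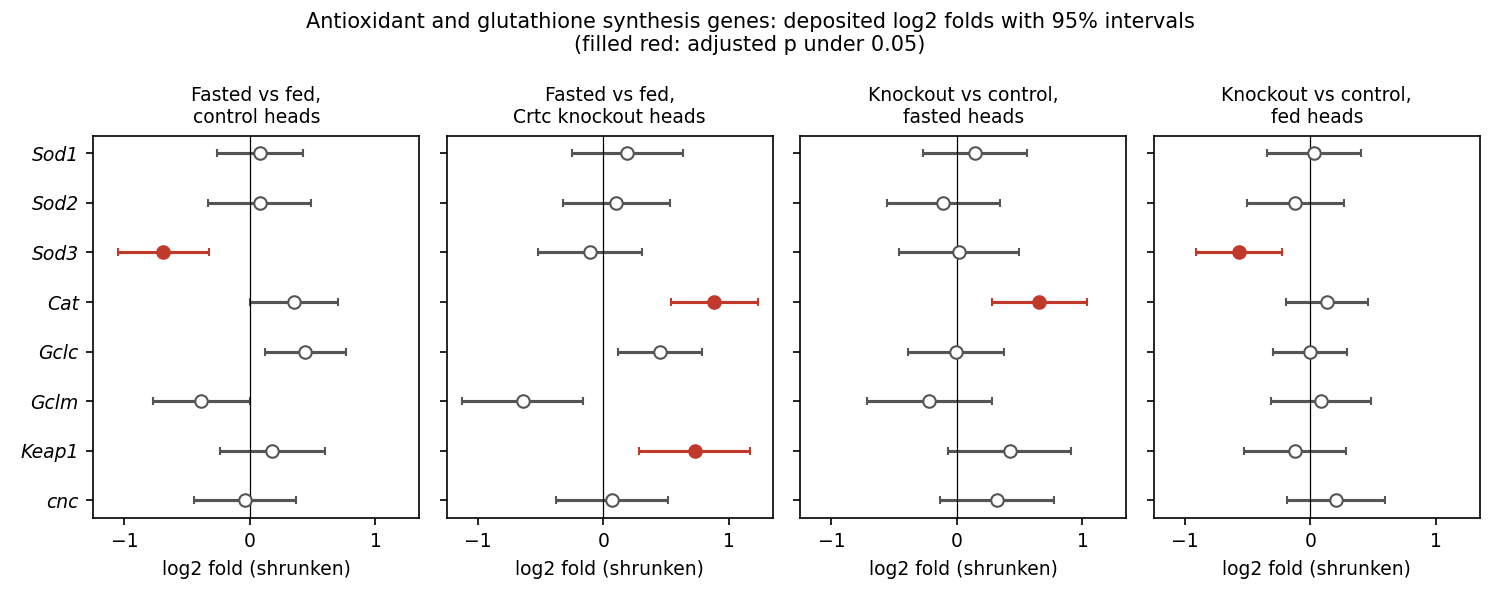
Log2 folds of the 8 genes in the authors' 4 comparisons, as points with 95% intervals, filled red where the adjusted p is under 0.05. Red points are Sod3 at -0.69 in fasted control heads and -0.57 in fed knockout against control heads, Cat at 0.88 and Keap1 at 0.73 in fasted knockout heads, and Cat at 0.66 in fasted knockout against control heads.

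The 2 subunits of glutamate-cysteine ligase pointed in opposite directions on fasting. Gclc (FBgn0040319, chromosome X, 8102181 to 8116147, minus strand, 4 annotated transcripts) encodes the catalytic subunit. Its level per kilobase was 26.2 in fed control, 36.6 in fasted control, 25.5 in fed knockout and 35.7 in fasted knockout heads, so both fasted groups were above both fed groups. Its log2 fold was 0.44 ± 0.16 in control heads and 0.45 ± 0.17 in knockout heads per the authors' deposited tables, neither past the threshold (adjusted p = 0.137 and 0.191). Gclm (FBgn0046114, chromosome 3R, 22685006 to 22686510, minus strand, 2 annotated transcripts) encodes the modifier subunit, which in vitro makes the catalytic subunit more active. Its level was 55.7 in fed control, 40.7 in fasted control, 57.8 in fed knockout and 33.3 in fasted knockout heads, so both fasted groups were below both fed groups. The log2 fold of Gclm was -0.39 ± 0.20 in control heads and -0.64 ± 0.25 in knockout heads per the authors' deposited tables, again without passing (adjusted p = 0.554 and 0.192).

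Because the 2 fasting tables share no library, the mean of both responses was also tested over the same 8474 genes, a test chosen after the values had been seen. The mean fold on fasting was 0.44 ± 0.12 for Gclc (adjusted p = 0.00392), -0.52 ± 0.16 for Gclm (adjusted p = 0.0183) and 0.62 ± 0.13 for Cat (adjusted p = 3.53e-05). Keap1 at 0.45 ± 0.16 and Sod3 at -0.40 ± 0.14 did not pass (adjusted p = 0.0507 and 0.0628), and Sod1, Sod2 and cnc lay between 0.01 and 0.13. These 3 of 8 genes stand beside 6.97% of all genes tested, 5.1% higher and 1.88% lower. With the t distribution (6 degrees of freedom) in place of the normal, 0 of the 8 passed (adjusted p = 0.106 for Cat, 0.211 for Gclc and 0.288 for Gclm, with 5 of 8 at an unadjusted p under 0.05). The level of Gclm over that of Gclc was 2.13 in fed and 1.11 in fasted control heads, and 2.27 in fed and 0.932 in fasted knockout heads. This ratio is given as a description, since both genes were measured in the same libraries and their joint error is unknown. Between genotypes neither subunit was called. In the authors' deposited tables, the knockout minus control fold of Gclc was -0.01 ± 0.20 for fasted and -0.00 ± 0.15 for fed heads, and Gclm by -0.22 ± 0.25 and 0.08 ± 0.20 per the same authors' deposited tables. The responses to fasting differed by 0.01 ± 0.24 for Gclc (95% interval -0.46 to 0.47) and by -0.26 ± 0.32 for Gclm (95% interval -0.88 to 0.36).

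Keap1 and cnc, the inhibitor and the activator of the pathway, differed in what passed. Keap1 (FBgn0038475, chromosome 3R, 17073942 to 17079945, minus strand, 3 annotated transcripts) had levels per kilobase of 7.27 in fed control, 8.44 in fasted control, 6.41 in fed knockout and 11.6 in fasted knockout heads, the last being the highest. In the fly, Keap1 is known to be a target of CncC itself. Fasting raised Keap1 in knockout heads, with a log2 fold of 0.73 ± 0.23 or 1.66-fold per the authors' deposited table (adjusted p = 0.0408). That call was lost when genes with few counts entered the adjustment (adjusted p = 0.0542). In control heads the fold was 0.18 ± 0.21 per the authors' deposited table (adjusted p = 0.998). The responses differed by 0.55 ± 0.31 (95% interval -0.06 to 1.16, adjusted p rounds to 1), and fasted knockout heads stood 0.42 ± 0.25 above fasted control heads per the authors' deposited table without passing (adjusted p = 0.597).

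The cnc gene (FBgn0262975, chromosome 3R, 23185580 to 23226711, minus strand) was not called in any comparison. Its level per kilobase was 22.1 in fed control, 21.4 in fasted control, 25.4 in fed knockout and 26.9 in fasted knockout heads. Its fold on fasting was -0.04 ± 0.21 in control and 0.07 ± 0.23 in knockout heads per the authors' deposited tables, and its fold between knockout and control was 0.32 ± 0.23 for fasted heads and 0.21 ± 0.20 for fed heads, both from the authors' deposited tables. The gene has 16 annotated transcripts, only some of which encode CncC, and the tables give a single value per gene. Irk1, CG46310 and fzo overlap cnc in the annotation, fzo on the same strand, so that reads from a shared stretch could belong to any of these genes. None of the other 7 members overlaps an annotated gene.

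**Figure D3:**
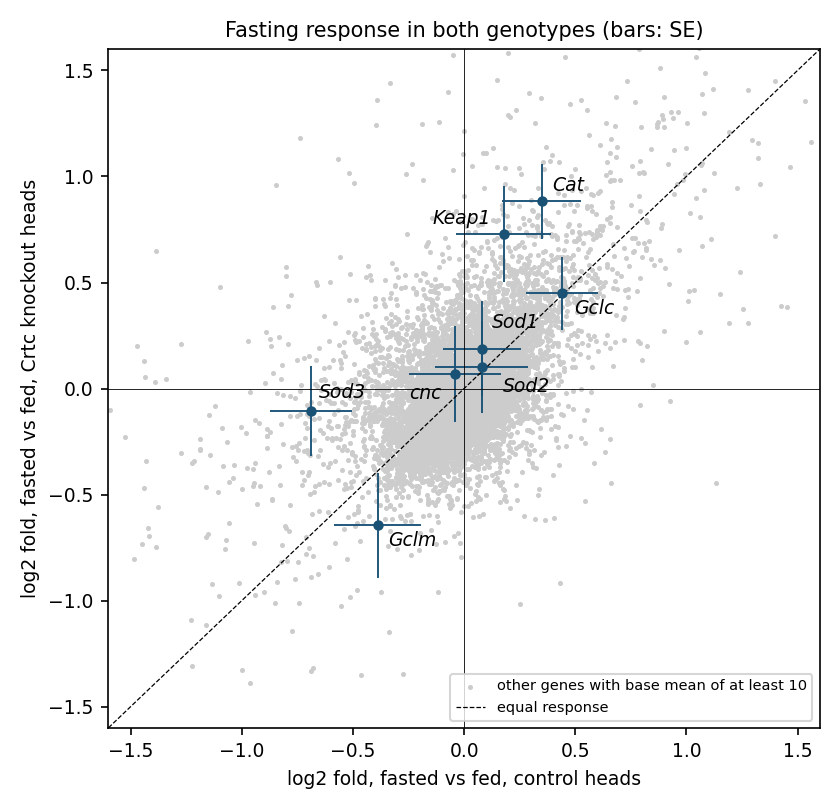
Log2 fold on fasting in control heads (x axis) and in Crtc knockout heads (y axis) for the 8 genes, with standard errors as bars, over the other genes (base mean 10 or more) in grey and the line of equal response dashed (64 of 8474 genes lie beyond 1.6 on an axis and are not drawn). Gclc lies on the line at 0.44 and 0.45, Gclm below 0 on both axes, Cat and Keap1 above the line at 0.88 and 0.73 in knockout heads, and Sod3 low in control heads only, at -0.69.

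Counted over the comparisons, fasting lowered 1 and raised 0 of the 8 genes in control heads (12.5%), where 3.84% of all genes tested were called, 1.65% lower and 2.19% higher. In knockout heads fasting raised 2 and lowered 0, where 3.26% of all genes were called, 2.76% higher and 0.498% lower. Between genotypes 1 of 8 was higher in fasted knockout heads and 1 of 8 lower in fed knockout heads, where 5.39% (3.43% higher) and 4.75% (2.49% lower) of all genes were called. The medians of the 8 folds, in the order of these comparisons, were 0.08, 0.15, 0.08 and 0.01, against -0.01, -0.02, -0.02 and 0.00 over all genes tested. For the difference of the fasting response 0 of 8 were called, against 0.802% of all genes (0.696% higher), with Sod3 and Cat at an unadjusted p under 0.05. The members' shares rest on 1 or 2 genes each, and nothing particular to the group is read from them.

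Beyond the 8, further genes of peroxide removal, NADPH supply and detoxification were called in 1 or more comparisons. The lists were chosen with earlier results of these data known, so the counts from them are a description. Over all genes tested, 2.19% were higher on fasting in control heads and 2.76% in knockout heads. For knockout against control, 3.43% were higher in fasted heads and 2.49% lower in fed heads. Over all lists, the difference of the fasting response between genotypes was called for 2 of 40 genes with the normal reference and for 0 with the t distribution. With the normal reference 0.802% of all genes tested were called. Of the peroxiredoxins and the glutathione peroxidase, 7 of 8 were tested. In fasted control heads 0 of 7 passed, and in fasted knockout heads 3 of 7 rose and 0 fell. Prx6c and Prx6b, peroxiredoxins of the Prx6 type, rose by 1.71 ± 0.26 and 1.26 ± 0.29 per the authors' deposited table (adjusted p = 8.48e-09 and 0.000978), and the glutathione peroxidase homolog Gtpx by 0.86 ± 0.21 (adjusted p = 0.00183). In control heads the fold of Gtpx on fasting was 0.51 ± 0.17 per the authors' deposited table (adjusted p = 0.0766). Its fasting response differed between genotypes by 0.36 ± 0.27, which did not pass. Fasted knockout heads exceeded fasted control heads in Prx6c by 2.19 ± 0.30 and in Prx6b by 2.09 ± 0.34 per the authors' deposited table, and fed knockout heads exceeded fed control heads in Prx6b by 1.14 ± 0.29. These comparisons share knockout libraries with the fasting comparison in knockout heads, so the calls are not independent of each other. Prx6b and Prx6c are closely similar neighbouring copies, and their reads may have been split between them. Prx6b had a base mean of only 4.95 over the control libraries per the authors' deposited table. The fasting response of Prx6c differed between genotypes by 1.50 ± 0.38 (adjusted p = 0.0147), a call lost with the shrinkage of the folds undone (adjusted p = 0.205) and with the t distribution (adjusted p rounds to 1). Prx5 is listed at 0 in all 4 of the authors' deposited tables, which does not show that it was not expressed, since how reads were assigned to genes is not stated.

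Enzymes that supply NADPH, the reductant of the glutathione and thioredoxin systems, gave 1 of 5 higher in fasted control heads, 2 of 5 in fasted knockout heads and 3 of 5 in fasted knockout against control heads, with 0 lower in each and 0 called in fed knockout against control heads. The isocitrate dehydrogenase gene Idh rose on fasting by 0.47 ± 0.15 in control and 1.34 ± 0.20 in knockout heads per the authors' deposited tables (adjusted p = 0.0343 and 8.97e-09). The malic enzyme gene Men rose by 1.04 ± 0.25 in knockout heads (adjusted p = 0.00128), with a control fold of 0.18 ± 0.15, per the authors' deposited tables. Fasted knockout heads exceeded fasted control heads in Men by 1.67 ± 0.18, in Idh by 1.00 ± 0.19 and in the pentose phosphate gene Pgd by 0.86 ± 0.24 per the authors' deposited table. The fasted knockout libraries also enter the fasting calls of Men and Idh in knockout heads, so these calls are not independent. The responses of Idh and Men gave differences between the genotypes short of the threshold (0.87 ± 0.25 and 0.86 ± 0.29, adjusted p = 0.0653 and 0.221). With the shrinkage undone the difference of Idh passed (1.01, adjusted p = 0.0423), and from the tables of knockout against control both passed (adjusted p = 0.0318 for Idh and 0.0231 for Men). In fasted knockout against control heads 3 of 4 fat body and 4 of 4 muscle markers were also higher, and their part in these values was not tested.

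Of 9 detoxification genes known as targets of CncC or of its inducers, 7 were tested. Fasting raised 3 of 7 in control heads and 6 of 7 in knockout heads and lowered 0 in either. Over all genes tested, 2.19% and 2.76% were higher. The cytochrome P450 gene Cyp6a8 rose by 2.08 ± 0.25 and 1.97 ± 0.29, and Cyp6a2 by 1.01 ± 0.21 and 0.83 ± 0.23, in control and knockout heads per the authors' deposited tables. The epoxide hydrolase gene Jheh1 rose by 0.76 ± 0.17 and 1.73 ± 0.18 per the same authors' deposited tables, and this difference passed, at 0.98 ± 0.25 (adjusted p = 0.0141), but not with the t distribution (adjusted p rounds to 1). Its neighbour Jheh2 rose by 0.87 ± 0.19 in knockout heads per the authors' deposited table (adjusted p = 0.000324). The glutathione transferase genes had another pattern: GstD1, GstD2 and GstE1 were lower in fed knockout than in fed control heads, by -0.68 ± 0.19, -1.28 ± 0.29 and -1.10 ± 0.23 per the authors' deposited table (adjusted p = 0.0143, 0.000409 and 6.89e-05). On fasting in knockout heads GstD2 rose by 1.11 ± 0.31 and GstE1 by 0.80 ± 0.24 per the authors' deposited table (adjusted p = 0.0161 and 0.0334). The fed knockout libraries enter both sets of calls, so these are not independent of each other. GstD2 had a base mean of only 10.8 over the knockout libraries. In fasted knockout against control heads GstD1, GstD2 and GstE1 had folds of -0.51, -0.51 and -0.38, none past the threshold. In that comparison 2 of 7 were called higher and 0 lower, beside 3.43% of all genes tested higher. These were Jheh1 at 1.05 ± 0.20 and Jheh2 at 0.72 ± 0.20 per the authors' deposited table (adjusted p = 1.12e-05 and 0.00856). The fasted knockout libraries also enter the fasting calls of both genes in knockout heads, so these calls are not independent. The median fold on fasting of the 7 genes was 0.27 in control and 0.87 in knockout heads, against -0.01 and -0.02 over all genes tested.

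**Figure D4:**
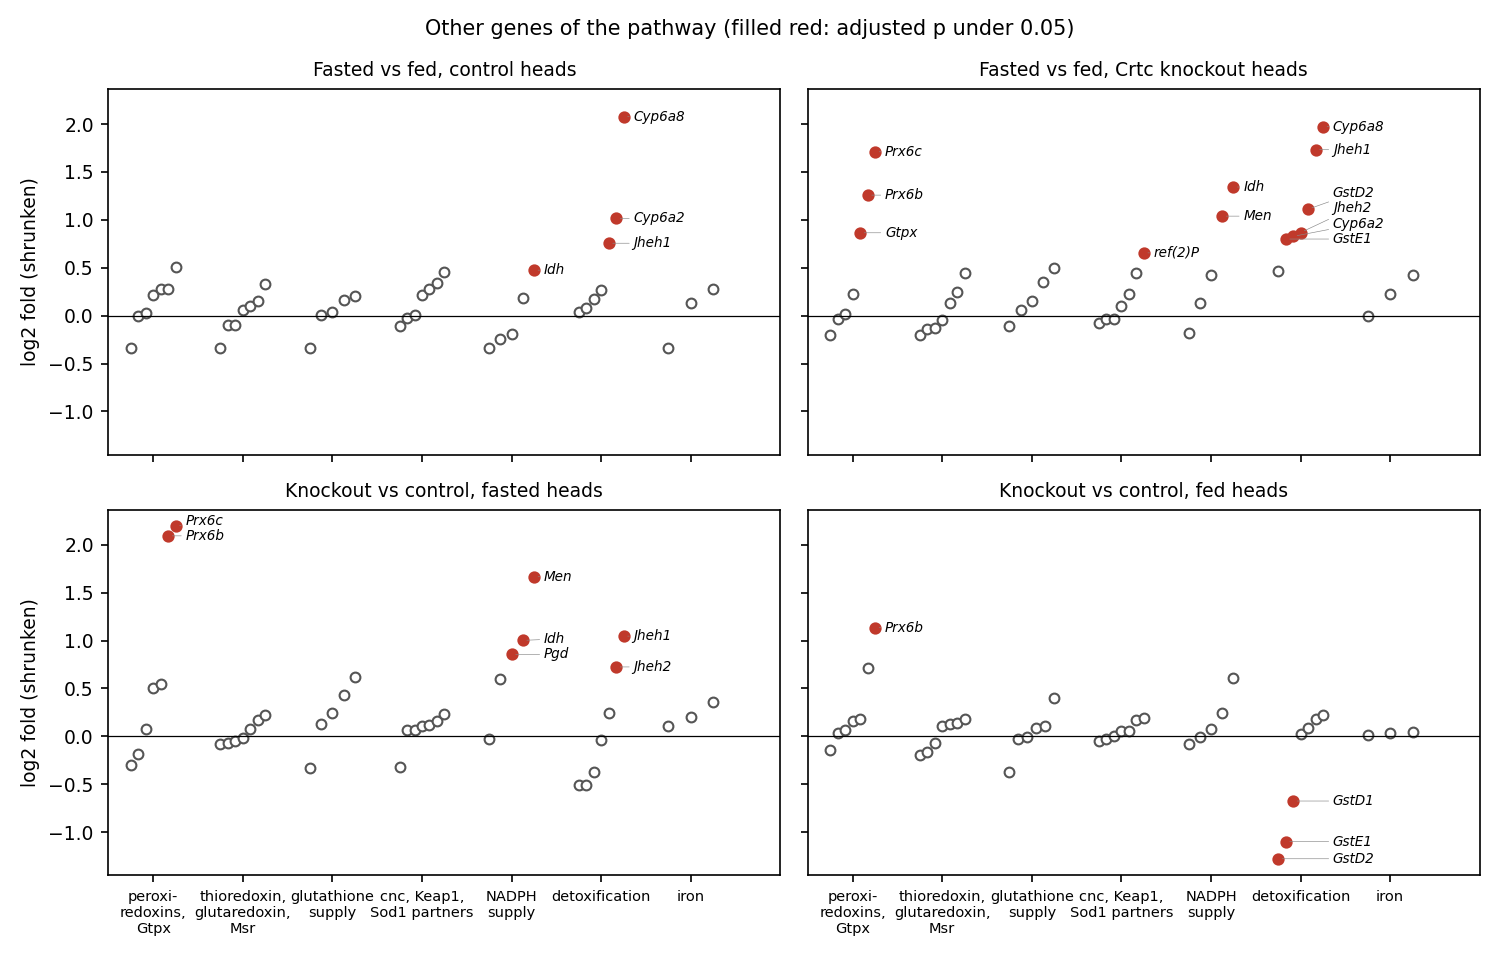
Log2 folds of the other genes of the pathway by list in the authors' 4 comparisons, each point being a gene with an adjusted p, filled red and named where that is under 0.05. Red points above 0 number 4 of 41 for fasting in control heads and 12 of 41 for fasting in knockout heads. Over all genes tested, 2.19% and 2.76% were called higher. The 3 glutathione transferase genes GstD1, GstD2 and GstE1 lie below 0 in fed knockout against control heads.

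The remaining lists were mostly not called in the 4 deposited comparisons. Of the partners of cnc, Keap1 and Sod1, 1 of 7 was called in fasted knockout heads, where ref(2)P, the fly p62, whose mammalian counterpart binds Keap1, rose by 0.66 ± 0.17 per the authors' deposited table (adjusted p = 0.00481), and 0 of 7 were called in the other 3 comparisons. The fold of ref(2)P in control heads was 0.45 ± 0.17 per the authors' deposited table (adjusted p = 0.133). Its responses differed by 0.20 ± 0.24 between genotypes, which did not pass. In the mean of both fasting responses ref(2)P was called, at 0.55, a call lost with the t distribution (adjusted p = 0.122). The small Maf gene maf-S, whose product pairs with CncC, had folds on fasting of 0.34 and 0.44 in control and knockout heads, and Ccs, which loads copper onto Sod1, of -0.02 and 0.22, none past the threshold per the authors' deposited tables. Genes of thioredoxin, glutaredoxin and methionine sulfoxide repair had 0 of 7 called in each comparison, led by Trx2 at -0.33 ± 0.15 in fasted control heads per the authors' deposited table (adjusted p = 0.388). Genes of glutathione supply and turnover had 0 of 5 or 0 of 6 called, led by GstS1 at 0.50 ± 0.19 in fasted knockout heads per the authors' deposited table (adjusted p = 0.164). The glutathione synthetase genes Gss1 and Gss2, which carry out the step after glutamate-cysteine ligase, are near-identical copies. Their base means lay between 0.942 and 2.41 per the authors' deposited tables, so their levels are uncertain and the second step of glutathione synthesis could not be read. Genes of iron storage and transport had 0 of 3 called in each of the 4, led by the ferritin gene Fer1HCH at 0.42 ± 0.18 in fasted knockout heads per the authors' deposited table (adjusted p = 0.319). In the mean of both fasting responses Fer1HCH was called, at 0.35 ± 0.12 (adjusted p = 0.0448), a call lost with the t distribution (adjusted p = 0.370).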

How the data were processed

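The files were 4 tables of the authors' DESeq2 results with no value per library. Per the file headers, the columns are a base mean (a signal, the mean over a comparison's libraries), the authors' log2 fold with its standard error, a Wald score deposited for each gene, and p-values deposited with their adjusted values. The submitters' processing notes name Cuffdiff, TopHat2, DESeq2 and STAR and the builds dm3 and dm6, with no versions or roles, and strand and counting are not given in the sources used here. Library numbers in the names of the tables and in the labels differ, which was read as a renumbering without the CREB mutant heads. The base means summed to between 3465010 and 4405826 normalized counts per table, and the depth per library is unknown.

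Calls use the deposited adjusted p, with a threshold of 0.05. The standard errors reached ceilings of 0.285, 0.315, 0.359 and 0.288 (control fasting, knockout fasting, fasted and fed knockout against control), the form that a normal prior gives, so folds are shrunken towards 0. From each ceiling the shrinkage was undone where the base mean was 10 or more, which made the members' folds 1.08 to 1.24 times as large. The difference and the mean of both fasting responses were tested with a normal reference over genes whose base mean was 10 or more in each table, with Benjamini-Hochberg adjustment (Python 3.11.15, scipy 1.17.1, statsmodels 0.14.6). Both tests were also run on simulated folds with normal noise of the same standard errors. Such noise has the form the tests assume, so the runs cannot show if a normal reference suits so few libraries. The deposited tables of fasting share no library. Of 17559 identifiers, 17253 were given a symbol. Positions and lengths are from Ensembl release 115 (BDGP6.54) and were not combined with coordinates of the files, which have none. The members and lists were chosen with earlier results of these data known. All 8 members are named, and of each list the genes called in any comparison or else the gene with the largest Wald score. Libraries of bodies (6), of CREB mutant heads (4) and of a head sample mutant for Sik2 (1) were not analysed here.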

Additional observations from a re-analysis of the deposited data

Results flagged for a closer look

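Responses to fasting were called different between the genotypes for 2 of the genes named, by the test of the difference itself. Over all 8474 genes tested, 0.802% were called. The difference (knockout minus control, log2) was 1.50 for Prx6c (adjusted p = 0.0147) and 0.98 for Jheh1 (adjusted p = 0.0141), and with a t distribution neither passed. The call of Prx6c was also lost with the shrinkage of the folds undone (adjusted p = 0.205).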

How the results depend on the processing

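For fasting in knockout heads 1 of the 8 genes, Cat, was called in place of 2 with no filter on low counts (Keap1 at adjusted p = 0.0542) and at a threshold of 0.01. At that threshold 0 were called in fasted knockout against control heads (Cat, adjusted p = 0.0159) and 0 in fed knockout against control heads (Sod3, adjusted p = 0.0271). With the t distribution (6 degrees of freedom) as reference, the difference of the fasting response passed for 0 genes in all (190 at an unadjusted p under 0.05), and the mean response for 102 in place of 591, with 0 of the 8 in place of 3. That reference is stricter by its construction. With a minimum base mean of 50, Keap1 joined the mean response (adjusted p = 0.0432). Of 232 values of the 8 genes under these alternatives, 224 kept their direction and side of the threshold, 7 lost a call, 1 gained it and 0 reversed. Most of these values had no call to lose. The 224 therefore do not show that the calls are firm. Among the other genes named, Idh passed the difference with the shrinkage undone (1.01), and Idh and Men passed the difference when it was computed from the tables of knockout against control (0.93 and 1.06), and the cause was not tested. The level of cnc was 28.3 to 35.5 by the longest transcript, against 21.4 to 26.9 by all exons. No paired analysis was possible because the tables hold no values per library, and leaving out a replicate could not be done for the same reason.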
